A study of Homo sapiens with 8 samples.

Results

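Antisense RNAs that were expressed in tumours of the human lung cancer line H2122 were compared, each with the gene it is named after, between parental and SMARCA4 knockout tumours. They were chosen by name and by level: the symbol ends in -AS1, -AS2 or -AS3, and the RNA reached 1 CPM (counts per 1000000 gene counts of the library) in at least 4 of the 8 tumours. Of 1235 antisense symbols among the 59050 genes in the count files, 271 met this level, and 340 had no count in any tumour. The level alone chose the 271, so their levels are given as a description, but an RNA can reach the level through the group in which it is higher. More knockout than parental tumours were at 1 CPM for 39 of the 271, more parental tumours for 12, and equal numbers for 220. The symbols mark a gene as antisense to a named partner. A partner gene was found in the files for 267 of them, 263 distinct partners in all, because 4 partners have a pair of antisense RNAs each. No partner row was found for HOXA-AS2, KRTAP5-AS1, RPARP-AS1 and TRG-AS1, whose names refer to gene clusters or to symbols not matched here.

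Both groups were xenografts grown in mice from H2122, an established line of human lung cancer, and every animal had received vehicle. The parental tumours, 4 in number, carry the genotype label WT. The other 4 came from H2122 cells with SMARCA4 knocked out. The sources used here do not say whether the knockout cells were 1 clone, or that each tumour came from a separate animal, so p-values measure the spread between these tumours only.

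A natural antisense RNA is a transcript made from the strand opposite to that of a gene at the same place. Some start close to the gene's own start, on the other strand, from a promoter region that fires both ways, and others start within or beyond the gene and run back across it. Many are long noncoding RNAs that stay in the nucleus or are degraded there by the nuclear exosome, and some, such as OIP5-AS1, are abundant and conserved. The product of SMARCA4 is the motor subunit of many SWI/SNF complexes, which slide or evict nucleosomes at promoters and enhancers, and loss of such remodelling is known to alter noncoding transcription as well as that of coding genes.

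SMARCA4 itself was measured at 215, 230.3, 203 and 239 CPM in parental tumours 1 to 4 and at 28.8, 26.0, 22.2 and 31.3 CPM in knockout tumours 1 to 4. No knockout tumour came near the parental range (log2 fold change -3.02, SE 0.117, adjusted p = 1.45e-07). Here and below, log2 fold changes are knockout over parental and adjusted p-values are from edgeR's quasi-likelihood test over 16219 genes unless another test is named. Library depth ranged from 19785922 to 23191698 gene counts among parental tumours and from 20662882 to 21981123 among knockout tumours. All 6 markers of tumour epithelium were expressed, with summed levels of 5890 to 6762 CPM in parental and 4600 to 6285 CPM in knockout tumours. EPCAM, KRT7 and KRT19 were each lower in every knockout than in every parental tumour, while KRT8, KRT18 and CDH1 overlapped. KRT19, for example, was at 942 to 1283 CPM in parental and 450 to 577 CPM in knockout tumours. Of 4 lung adenocarcinoma markers, NKX2-1 and SFTPC were at 0 in every tumour and the 4 summed to at most 1.50 CPM. Summed levels of 8 leukocyte markers were 13.1, 69.7, 59.3 and 7.59 CPM in parental tumours 1 to 4 and 10.6 to 28.1 CPM in knockout tumours, and fibroblast markers summed to 182 to 611 CPM and 340.4 to 599 CPM. Most of the fibroblast sum was COL1A1, at 176 to 576 CPM in parental and 314 to 561 CPM in knockout tumours. LUM alone of the fibroblast markers did not overlap, at 0.101 to 0.647 CPM in parental and 9.83 to 15.6 CPM in knockout tumours. Bulk values of this kind cannot tell fewer cells of a type from less RNA per cell. The tumours were human cells grown in mice, reads were aligned to the human genome, and any removal of mouse reads is not given. Whether counts of leukocyte, fibroblast, endothelial or muscle markers, here and below, come from mouse cells or from the tumour cells was not tested. Reads in no annotated feature made up 7.08% ± 1.17 (SD, n = 4) of parental and 8.70% ± 1.26 (SD, n = 4) of knockout reads (exact two-sided permutation p = 0.114).

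The kit named in the labels prepares DNA libraries and does not itself mark the strand of the RNA, and the strand setting of the counting is not given in the sources used here. If strand was not used, a read that fits both an antisense RNA and its partner is dropped as ambiguous by default, and a gene whose exons lie wholly under exons of the other strand would have no count. By the gene models of GENCODE 29, 724 genes lie this way, and 439 of them had counts (60.6%), among them 265 of the 323 annotated as antisense (82.0%) and 3 of the 271, DDIT4-AS1, MUC5B-AS1 and PCF11-AS1. These counts are not those of counting without strand on these models, but the models the authors used are not given in the sources used here. Whether a small part of an antisense count is from wrongly stranded reads of an abundant partner was not tested. Ambiguous reads made up 4.20% ± 0.154 of parental and 4.13% ± 0.0185 of knockout reads (SD, n = 4 each). The overlap of the exons is given beside some of the pairs described here, and where it is not given, exons may still overlap. By GENCODE 29, 69 of 261 placed pairs had no exonic base in common, the median antisense RNA shared 5.94% of its exonic bases with its partner, and 13 shared more than 50%.

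Promoter windows of 4 antisense RNAs and of 1 partner are shown as a description, chosen by the changes given below. They are CHRM3-AS2, which fell most, PIK3CD-AS2 and DNAH17-AS1, which rose most, and ATP2B1-AS1 with ATP2B1, a pair with starts close together that rose together. Each runs from 250 bases before to 50 bases from the RefSeq start site on GRCh38.p14, is written 5′ to 3′ on the gene's own strand, and has every CG dinucleotide in capitals. CHRM3-AS2 is at chr1:239719070-239719369 (minus strand), a RefSeq start that lies 11346 bases from the GENCODE 29 start of the gene. PIK3CD-AS2 is at chr1:9687525-9687824 (minus), DNAH17-AS1 at chr17:78484660-78484959 (plus), ATP2B1-AS1 at chr12:89708705-89709004 (plus) and ATP2B1 at chr12:89709317-89709616 (minus).
CHRM3-AS2: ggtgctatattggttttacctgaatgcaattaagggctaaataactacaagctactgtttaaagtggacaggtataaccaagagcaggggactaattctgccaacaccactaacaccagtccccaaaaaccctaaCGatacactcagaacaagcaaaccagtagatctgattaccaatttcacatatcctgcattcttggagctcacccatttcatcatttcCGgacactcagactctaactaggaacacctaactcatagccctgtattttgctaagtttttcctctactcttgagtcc
PIK3CD-AS2: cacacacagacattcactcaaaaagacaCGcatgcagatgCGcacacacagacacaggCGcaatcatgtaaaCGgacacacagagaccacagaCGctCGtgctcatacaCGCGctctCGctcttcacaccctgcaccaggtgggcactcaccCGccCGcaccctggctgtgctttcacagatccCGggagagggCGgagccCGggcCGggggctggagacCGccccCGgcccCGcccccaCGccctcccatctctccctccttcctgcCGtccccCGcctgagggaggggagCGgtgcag
DNAH17-AS1: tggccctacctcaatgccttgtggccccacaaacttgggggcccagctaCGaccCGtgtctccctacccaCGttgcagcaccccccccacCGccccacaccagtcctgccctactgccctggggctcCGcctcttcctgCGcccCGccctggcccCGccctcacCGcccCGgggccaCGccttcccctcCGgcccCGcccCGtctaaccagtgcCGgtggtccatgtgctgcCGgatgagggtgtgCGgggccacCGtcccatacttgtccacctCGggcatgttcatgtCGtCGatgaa
ATP2B1-AS1: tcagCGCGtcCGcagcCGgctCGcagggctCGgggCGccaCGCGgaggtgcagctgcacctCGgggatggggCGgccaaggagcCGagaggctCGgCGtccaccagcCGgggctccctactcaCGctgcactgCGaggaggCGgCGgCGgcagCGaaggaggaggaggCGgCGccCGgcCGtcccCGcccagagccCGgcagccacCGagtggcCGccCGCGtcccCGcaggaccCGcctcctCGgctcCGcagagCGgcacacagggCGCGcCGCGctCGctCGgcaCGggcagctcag
ATP2B1: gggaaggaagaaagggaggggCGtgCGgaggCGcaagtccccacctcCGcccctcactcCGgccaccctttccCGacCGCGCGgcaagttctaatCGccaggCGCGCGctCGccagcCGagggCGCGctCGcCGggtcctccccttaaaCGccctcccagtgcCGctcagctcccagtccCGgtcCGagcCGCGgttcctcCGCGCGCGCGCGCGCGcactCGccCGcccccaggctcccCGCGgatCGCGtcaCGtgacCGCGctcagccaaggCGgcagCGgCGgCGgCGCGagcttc
The CHRM3-AS2 window holds 2 CG dinucleotides, against 22 for PIK3CD-AS2, 21 for DNAH17-AS1, 43 for ATP2B1-AS1 and 48 for ATP2B1, and the median of all 35116 RefSeq windows is 14. Windows were found for 194 of the 271 antisense RNAs (239 windows), with a median of 23 CG. The GC box, searched as GGGCGG on both strands and itself holding a CG, was present in 45.0% of all windows and in 56.1% of the antisense windows. It was in all of the printed windows except that of CHRM3-AS2, which held CCAAT instead (34.6% of all windows, both strands). The AP-1 site TGANTCA was in 7.71% of all windows and in 5.86% of the antisense windows. It was in 4 of 29 windows (13.8%) of antisense RNAs higher in knockout tumours, 0 of 10 of those lower and 10 of 200 (5.0%) of those not called. In the same order, the GC box was in 15, 3 and 116 windows and CCAAT in 8, 5 and 56. These are small counts, and the differences were not tested. None of the 5 printed windows holds the AP-1 site.

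Most of the antisense RNAs were scarce beside the genes they are named after. Their mean level over the 8 tumours had a median of 3.37 CPM, with 77 below 2 CPM and 57 at 10 CPM or more. Per length, as RPKM (CPM per kilobase of the gene's merged exons), the median antisense RNA was at 1.29 and the median partner at 5.16, and in 80 of 261 pairs the antisense RNA was above its partner. The plot of levels sets the mean RPKM of each antisense RNA against that of its partner.

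**Figure D1:**
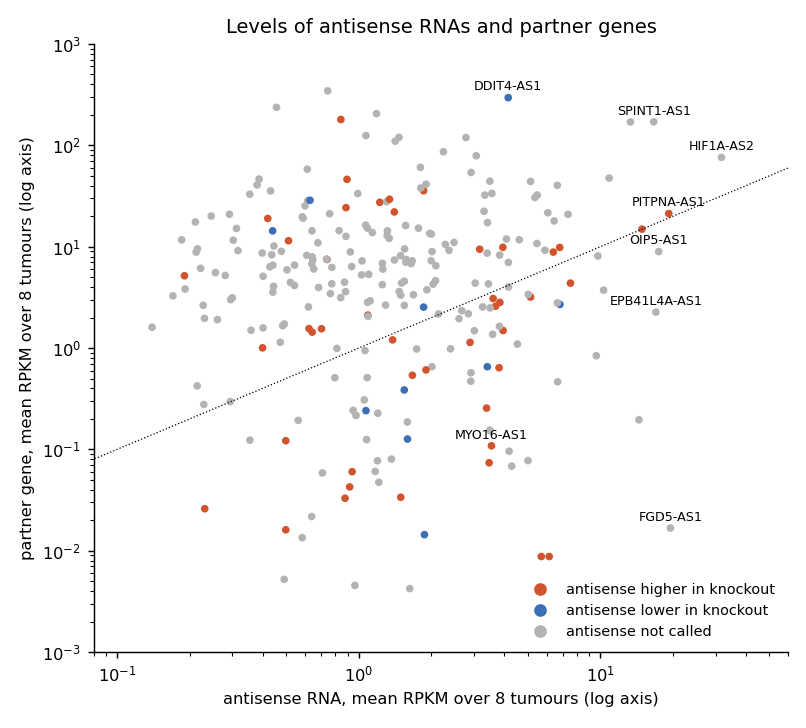
Mean RPKM over 8 tumours of each antisense RNA (horizontal, log axis) against its partner gene (vertical, log axis), for the 260 pairs in which both are above 0, coloured by the antisense RNA's call. The dotted line marks equal levels, most pairs lie above it, and FGD5-AS1 stands out below it at 19.5 against 0.0168 RPKM.

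The 6 most abundant per length were HIF1A-AS2 (31.7 RPKM), FGD5-AS1 (19.5), PITPNA-AS1 (19.2), OIP5-AS1 (17.4), EPB41L4A-AS1 (17.0) and SPINT1-AS1 (16.6). Of these, PITPNA-AS1 alone passed the test between the groups, and it is described with its partner below. OIP5-AS1, a conserved RNA also known as cyrano, was at 214, 189, 177 and 245 CPM in parental and 250.2, 244, 239.9 and 208 CPM in knockout tumours, and these overlap (log2 fold change 0.21, SE 0.116, adjusted p = 0.210). FGD5-AS1 was read at 81.8 to 119 CPM in parental and 96.1 to 108 CPM in knockout tumours, while FGD5 never exceeded 0.344 CPM. HIF1A-AS2 was at 9.65, 29.2, 12.2 and 9.96 CPM in parental and 18.6, 24.1, 17.0 and 14.3 CPM in knockout tumours. It did not pass the test (log2 fold change 0.30, SE 0.324, adjusted p = 0.533), but without parental tumour 2, which was the highest of all 8, its log2 fold change was 0.82 (adjusted p = 0.00581). HIF1A, the oxygen-regulated transcription factor subunit, fell, with 426 to 512 CPM in parental and 266 to 345 CPM in knockout tumours and no overlap (log2 fold change -0.63, SE 0.102, adjusted p = 0.000870).

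As a group the antisense RNAs lay higher in knockout tumours, and those that passed the test were mostly higher. Of the 271, 45 rose (16.6%) and 11 fell (4.06%), where 27.0% of all genes tested were called, 13.0% as higher and 14.1% as lower. Among the 14436 genes that reach the same level, 27.8% were called, 13.2% as higher and 14.6% as lower. The share that changed in either direction was 20.7%, below that of all genes. The median log2 fold change was 0.21 with quartiles at -0.04 and 0.50, and 190 of 271 (70.1%) were above 0, against a median of 0.00 and 50.5% above 0 over all genes tested. Their partners had a median of -0.04.

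The plot of fold changes shows both distributions. Low genes in general leaned the same way. Over all genes at 1 CPM in at least 4 tumours, the median log2 fold change was 0.18 for a mean level under 2 CPM, 0.09 for 2 to 10 CPM and -0.03 for 10 CPM or more. The antisense RNAs had medians of 0.34, 0.21 and 0.19 in the same classes. In the highest class, 14 of 57 antisense RNAs rose and 2 fell (28.1% called), against 11.4% higher and 15.3% lower among all genes of that level (26.7% called). In the middle class, 20 of 137 rose and 8 fell (20.4%), against 17.7% higher and 14.4% lower among all genes of that level (32.1% called). In the lowest class, 11 of 77 rose and 1 fell (15.6%), against 15.4% higher and 10.7% lower among all genes of that level (26.2% called).

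**Figure D2:**
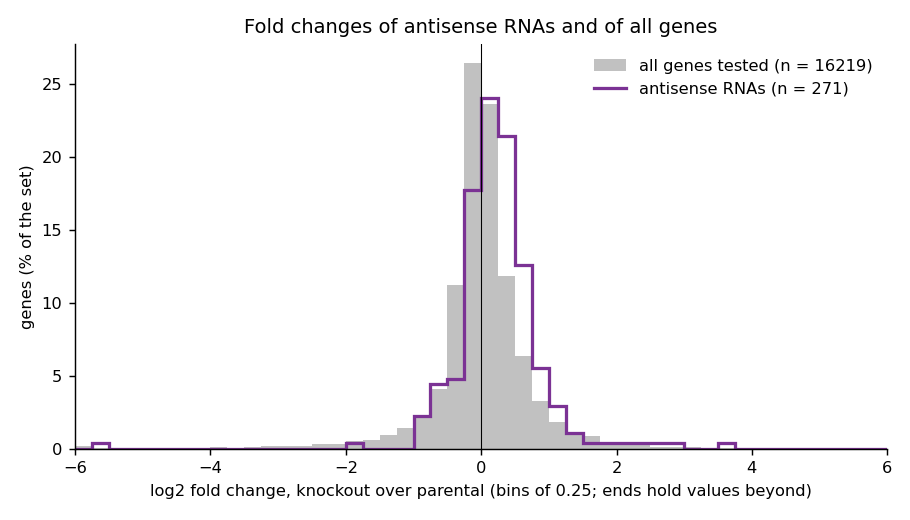
Share of genes (vertical, %) by log2 fold change, knockout over parental (horizontal, bins of 0.25), for the 271 antisense RNAs (line) and all 16219 genes tested (filled). The line is shifted to the right of the filled curve near 0, with medians of 0.21 and 0.00.

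An antisense RNA that reached the level mainly through 1 group was chosen in part by its difference, so the counts were also split by tumours at 1 CPM. All 8 tumours were at 1 CPM for 210 antisense RNAs, of which 31 rose and 9 fell (19.0%), beside 12.3% higher and 14.1% lower (26.3% in all) among the 12965 genes at that level. Their median log2 fold change was 0.20 and 148 of 210 were above 0. Among all genes, 4014 of 14436 were called at 1 CPM in at least 4 tumours (27.8%) and 3416 of 12965 at 1 CPM in all 8 (26.3%). The share among genes at 1 CPM in at least 4 but not all 8 tumours was therefore above 27.8%. By direction it was likewise above 13.2% for higher and above 14.6% for lower. Of the 61 antisense RNAs not at 1 CPM in all 8, 26.2% were called, which is below that of all such genes. In this set of 61, 14 rose (23.0%) and 2 fell (3.28%), the latter also below the share of all such genes. In that set 5 were at 1 CPM in all 4 knockout tumours and no parental tumour (PIK3CD-AS2, RASSF8-AS1, MYLK-AS1, SLFNL1-AS1 and TOB1-AS1, of which the first 4 were called), and CHRM3-AS2 and ZNF503-AS1 were at 1 CPM in all 4 parental tumours and no knockout tumour. The 271 together took 0.199% to 0.220% of gene counts in parental and 0.235% to 0.271% in knockout tumours, which do not overlap. That sum includes the antisense RNAs chosen in part by their difference. The 210 at 1 CPM in all 8 tumours took 0.192% to 0.211% in parental and 0.227% to 0.261% in knockout tumours, also without overlap. How often the sums of other sets of genes do so was not tested. The share of reads in no feature, given above, was also higher on average in knockout tumours, and its part in these values was not tested.

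The largest rises included antisense RNAs of high and of very low parental level. SLC44A3-AS1 (ENSG00000224081.8, chr1:94613814-94855426, minus strand, annotated as a transcribed processed pseudogene) was at 14.2, 23.2, 15.2 and 16.1 CPM in parental tumours 1 to 4 and at 134, 97.4, 101 and 122 CPM in knockout tumours 1 to 4. Every knockout tumour was far above every parental tumour, with means of 17.2 ± 4.10 and 114 ± 17.6 CPM (SD, n = 4 each; log2 fold change 2.75, SE 0.168, adjusted p = 1.17e-06). SLC44A3, a choline transporter-like gene that shares no exonic base with it, was at 23.1 to 26.5 CPM in parental and 22.5 to 28.3 CPM in knockout tumours (log2 fold change 0.08, SE 0.108, adjusted p = 0.619). The bodies of both genes overlap by 35085 bases, so the antisense RNA starts inside its partner and most of it runs outside.

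DNAH17-AS1 (ENSG00000267432.5, chr17:78484882-78503056, plus strand) lies within the body of DNAH17, an axonemal dynein heavy chain gene. It was at 6.42, 6.34, 4.39 and 3.79 CPM in parental and 41.6, 41.3, 30.6 and 33.0 CPM in knockout tumours (log2 fold change 2.83, SE 0.193, adjusted p = 2.65e-06). DNAH17 was at 5.16, 7.38, 4.11 and 4.40 CPM and at 18.7, 18.1, 15.2 and 9.36 CPM, again with no overlap (log2 fold change 1.57, SE 0.248, adjusted p = 0.000762). The pair shares 26.8% of the antisense RNA's exonic bases. PIK3CD-AS2 (ENSG00000231789.2, chr1:9672426-9687555, minus strand), named after the gene of a catalytic subunit of phosphoinositide 3-kinase, was nearly silent in parental tumours. It had 7 counts over the 4 parental and 96 over the 4 knockout libraries, or 0.0431 to 0.152 CPM and 1.02 to 1.27 CPM (log2 fold change 3.70, SE 0.375, adjusted p = 3.52e-05). PIK3CD was at 5.61 to 9.49 CPM and 8.33 to 13.4 CPM, which overlap (log2 fold change 0.56, SE 0.201, adjusted p = 0.0616). Without parental tumour 2 or knockout tumour 4, the values of PIK3CD were 0.69 (adjusted p = 0.0247) and 0.67 (adjusted p = 0.0348).

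Others among the 10 largest rises were RASSF8-AS1 (log2 fold change 2.50), SLCO4A1-AS1 (2.08), IGFL2-AS1 (1.79), TBX2-AS1 (1.52), CA3-AS1 (1.43), ATP2B1-AS1 (1.39) and FZD10-AS1 (1.29). CA3-AS1 was at 0.404, 1.03, 0.503 and 0.474 CPM in parental and 1.73, 1.79, 1.67 and 1.22 CPM in knockout tumours (SE 0.316, adjusted p = 0.00618), while CA3, a carbonic anhydrase gene of muscle, was at no more than 0.145 CPM in any tumour and was not tested. Skeletal muscle markers summed to 0.202 to 25.3 CPM in parental and 0.145 to 14.1 CPM in knockout tumours, highest in parental tumour 2, and their part in the CA3-AS1 values was not tested. Outside the rule for named genes, and chosen after their values were seen, GABPB1-AS1 and PAX8-AS1 were the most abundant by CPM among the remaining rises. GABPB1-AS1 rose from 89.3 to 144 CPM in group means (log2 fold change 0.71, adjusted p = 0.0137) and PAX8-AS1 from 38.7 to 61.1 CPM (log2 fold change 0.68, adjusted p = 0.00220). Neither GABPB1, a subunit of an ETS-family transcription factor, nor PAX8, a paired box factor, passed the test (adjusted p = 0.106 and 0.836).

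**Figure D3:**
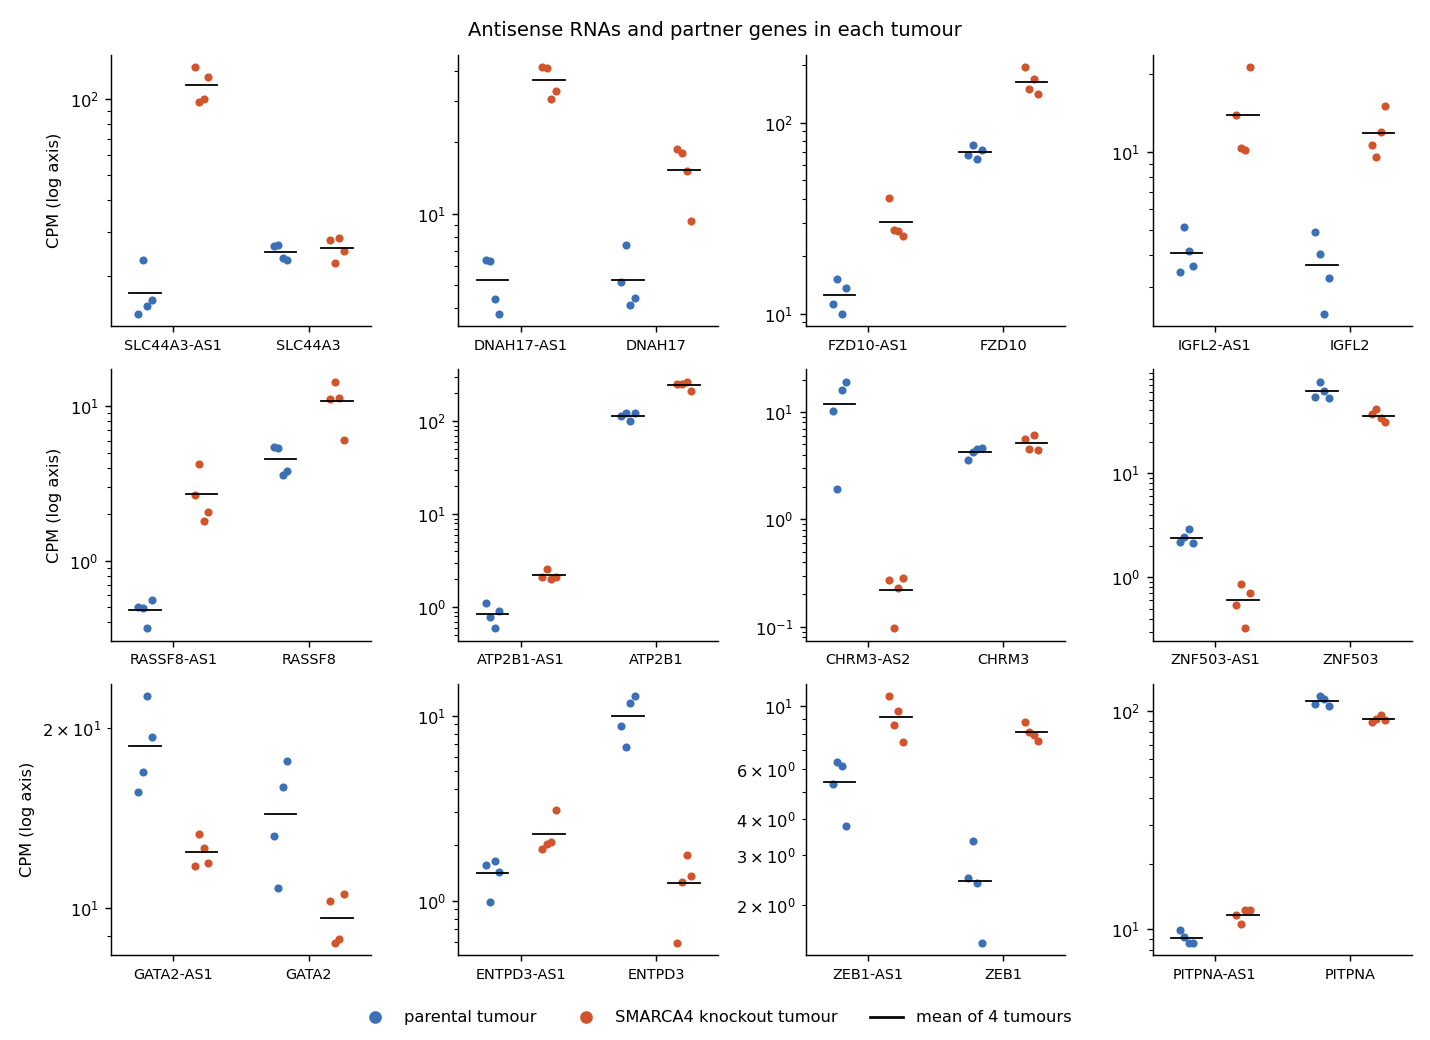
CPM (vertical, log axes that differ between panels) of 12 antisense RNAs and their partner genes in each of 4 parental and 4 knockout tumours, with a bar at the mean of each group. SLC44A3-AS1 and CHRM3-AS2 separate the groups while their partners do not, and ENTPD3 falls where ENTPD3-AS1 is higher.

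Among the 11 antisense RNAs that fell, CHRM3-AS2 (ENSG00000233355.6, chr1:239703381-239730465, minus strand) fell most. It was at 10.2, 1.92, 15.9 and 19.2 CPM in parental tumours 1 to 4 and at 0.273, 0.0968, 0.232 and 0.282 CPM in knockout tumours 1 to 4. Parental tumour 2 was well below the other parental tumours but still above every knockout tumour. The totals were 1032 counts in parental and 19 in knockout libraries (log2 fold change -5.67, SE 0.704, adjusted p = 0.000144). CHRM3, the gene of a muscarinic acetylcholine receptor in whose body it lies, was at 3.54 to 4.66 CPM and 4.42 to 6.12 CPM (log2 fold change 0.31, SE 0.167, adjusted p = 0.202), and the pair shares 6.92% of the antisense RNA's exonic bases.

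ZNF503-AS1 (ENSG00000226051.7, chr10:75269819-75373500, plus strand) fell next most, from 2.17, 2.41, 2.93 and 2.11 CPM to 0.546, 0.871, 0.325 and 0.706 CPM (log2 fold change -1.95, SE 0.288, adjusted p = 0.000475). It is named after ZNF503, a zinc finger repressor gene whose start lies 132087 bases away and which also fell, with 52.0 to 75.3 CPM in parental and 30.9 to 40.9 CPM in knockout tumours (log2 fold change -0.75, SE 0.133, adjusted p = 0.00153). The other falls were smaller. They were DDIT4-AS1 (log2 fold change -0.93), PRRT3-AS1 (-0.91), LOXL1-AS1 (-0.88), AGAP2-AS1 (-0.86), KRTAP5-AS1 (-0.85), SUCLG2-AS1 (-0.80), ZFPM2-AS1 (-0.72), GATA2-AS1 (-0.57) and TP73-AS1 (-0.52). LOXL1-AS1 was at 8.41 to 12.4 CPM in parental and 5.29 to 5.65 CPM in knockout tumours (SE 0.150, adjusted p = 0.00129), whereas LOXL1, an elastin-crosslinking lysyl oxidase gene, overlapped between the groups (log2 fold change -0.42, SE 0.298, adjusted p = 0.333). PRRT3-AS1 was called with all 8 tumours (adjusted p = 0.0305) and was not without parental tumour 1, 3 or 4 or knockout tumour 1, 2 or 3, with values from -0.92 to -0.76.

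Where both members of a pair changed, they mostly changed the same way. Both genes were tested in 243 pairs. Both passed the test in 21, of which 12 rose together, 5 fell together and 4 went opposite ways. The antisense RNA alone changed in 25 (21 higher, 4 lower), the partner alone in 57 (23 higher, 34 lower) and neither in 140. Of the 240 distinct partners tested, 77 changed (32.1%, 35 higher and 42 lower), beside the 27.0% of all genes. Over the 243 pairs the log2 fold changes of antisense RNA and partner had a Pearson r of 0.29 and a Spearman rho of 0.29. Both members of a pair come from the same 8 libraries and in most pairs overlap each other, and 4 partners enter with a pair of antisense RNAs each, so this is a description only. These counts and correlations were not made for other pairs of opposite-strand genes, so they are not shown to be particular to antisense RNAs. Among the 21, RASSF8-AS1 and MYLK-AS1 reached 1 CPM in knockout tumours only, and ZNF503-AS1 in parental tumours only. Such antisense RNAs were chosen in part by their difference.

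**Figure D4:**
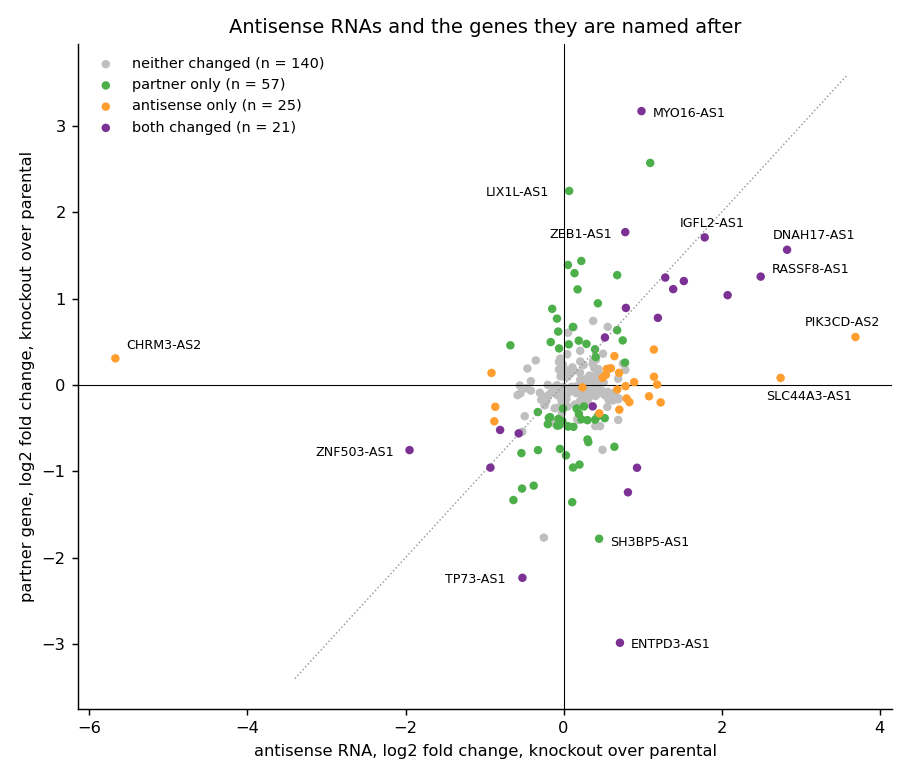
Log2 fold change, knockout over parental, of each antisense RNA (horizontal) and its partner gene (vertical) for 243 pairs, coloured by which of them passed the edgeR test. The dotted line marks equal change, the pairs in which both rose or both fell number 17, and the 4 opposite pairs have a higher antisense RNA and a lower partner.

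Pairs that rose together included a Wnt receptor gene and an ion pump gene. FZD10-AS1 starts 203 bases from FZD10, a frizzled receptor, and shares no bases with it. It was at 11.3, 15.2, 10.0 and 13.7 CPM in parental and 40.2, 27.5, 27.2 and 25.6 CPM in knockout tumours (log2 fold change 1.29, SE 0.178, adjusted p = 0.000300). FZD10 was at 64.7 to 76.5 CPM and 141 to 196 CPM (log2 fold change 1.24, SE 0.117, adjusted p = 2.06e-05), so both moved by nearly the same amount and knockout tumour 1 was highest for both. ATP2B1-AS1 was at 1.11, 0.787, 0.594 and 0.905 CPM in parental and 2.14, 2.56, 1.99 and 2.12 CPM in knockout tumours (log2 fold change 1.39, SE 0.246, adjusted p = 0.00161). ATP2B1, the gene of a plasma membrane calcium pump, was about as far apart at a much higher level, 99.7 to 124 CPM against 213 to 268 CPM (log2 fold change 1.11, SE 0.105, adjusted p = 2.25e-05). The RefSeq start sites of this pair, whose windows are printed above, lie 411 bases apart, and the exons share 2.26% of the antisense RNA's bases.

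IGFL2-AS1 and IGFL2, a gene of a family of small secreted growth factor-like proteins, also rose by like amounts although their starts lie 59977 bases apart. IGFL2-AS1 was at 3.44, 5.11, 4.16 and 3.62 CPM in parental and 13.9, 10.4, 10.2 and 21.3 CPM in knockout tumours (log2 fold change 1.79, SE 0.241, adjusted p = 0.000258), and for IGFL2 it was 1.71 (SE 0.225, adjusted p = 0.000217). RASSF8-AS1 was at 0.366 to 0.561 CPM in parental and 1.81 to 4.26 CPM in knockout tumours. Its partner RASSF8, a Ras-association domain gene, rose less in log2 terms (1.26, SE 0.258, adjusted p = 0.00400, against 2.50, SE 0.329). TBX2-AS1 (1.52) rose with TBX2 (1.20), a T-box transcription factor gene, and SLCO4A1-AS1 (2.08) with SLCO4A1 (1.04), an organic anion transporter gene.

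The remaining pairs that rose together differed in size. ZEB1-AS1 was at 3.79 to 6.34 CPM in parental and 7.48 to 10.9 CPM in knockout tumours (log2 fold change 0.78, SE 0.189, adjusted p = 0.0100), while ZEB1, a repressor of epithelial genes, went from 2.48, 3.34, 2.38 and 1.47 CPM to 8.83, 8.13, 7.93 and 7.57 CPM (log2 fold change 1.77, SE 0.218, adjusted p = 0.000138). MYO16, an unconventional myosin gene, rose from at most 0.345 CPM to between 1.36 and 2.64 CPM (log2 fold change 3.17, SE 0.381, adjusted p = 0.000114). MYO16-AS1 had 0.99 (adjusted p = 0.0181), and 0.89 without parental tumour 1 (adjusted p = 0.0541) and 0.78 without knockout tumour 4 (adjusted p = 0.0533). OSMR-AS1 (1.19, adjusted p = 0.0142) rose with OSMR (0.78, adjusted p = 0.00738), the oncostatin M receptor gene that starts 29 bases away, and was at 1.01 without knockout tumour 1 (adjusted p = 0.0511). PRKCQ-AS1 (0.52, adjusted p = 0.0257) rose with PRKCQ (0.55), a protein kinase C gene. It was not called without parental tumour 2 or 3 or knockout tumour 3 or 4, with values from 0.43 to 0.49. SLC16A1-AS1 (0.79, adjusted p = 0.0410) rose with SLC16A1 (0.89, adjusted p = 9.34e-05), a lactate transporter gene, and kept its call without parental tumour 2 or knockout tumour 1 but not without any of the other 6 tumours (0.66 to 0.86).

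The 5 pairs that fell together were those of ZNF503, GATA2, SUCLG2, DDIT4 and TP73. GATA2-AS1 was at 15.7, 16.9, 22.6 and 19.4 CPM in parental and 11.8, 13.3, 12.6 and 11.9 CPM in knockout tumours (log2 fold change -0.57, SE 0.121, adjusted p = 0.00495). GATA2, a transcription factor gene of blood stem cells that shares no exonic base with it, had -0.56 (SE 0.154, adjusted p = 0.0195) and -0.52 without knockout tumour 2 or 3 (adjusted p = 0.0601 and 0.0591). SUCLG2-AS1 (-0.80, adjusted p = 0.0276) fell with SUCLG2 (-0.52, adjusted p = 0.00253), a gene of the mitochondrial enzyme succinyl-CoA synthetase that starts 83 bases away. The antisense RNA of that pair was not called without parental tumour 2 or 4 or knockout tumour 1 or 2 (-0.78 to -0.68).

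DDIT4-AS1 lies wholly within the exons of DDIT4, a stress-induced inhibitor of mTOR signalling. It was at 3.13, 7.28, 5.12 and 3.02 CPM in parental and 2.41, 2.56, 1.99 and 2.63 CPM in knockout tumours, and DDIT4 at 567, 1167, 976 and 519.5 CPM and at 499, 466, 355 and 314 CPM. Parental tumours 2 and 3 were highest for both, and the count of DDIT4-AS1 was 0.483% to 0.838% of that of DDIT4 in each tumour. MUC5B-AS1 was chosen after its values were seen, because it also lies wholly within exons of its partner, the mucin gene MUC5B. It was also a small share of its partner, with log2 ratios of -9.28 to -8.95. PCF11-AS1, the other antisense RNA wholly under exons of the opposite strand, is not compared here, so these pairs do not show a pattern. The log2 fold changes of DDIT4-AS1 and DDIT4 were -0.93 (adjusted p = 0.0295) and -0.96 (adjusted p = 0.0154). The call of DDIT4-AS1 was lost without parental tumour 2 (-0.63) or 3, and without any 1 knockout tumour. Leukocyte markers were also highest in parental tumours 2 and 3, and their part in this was not tested. TP73, a p53-family gene, fell from 1.47, 2.11, 5.07 and 2.16 CPM to 0.591, 0.436, 0.649 and 0.565 CPM (log2 fold change -2.23, SE 0.388, adjusted p = 0.00141). TP73-AS1 fell less, with 10.5 to 14.9 CPM and 7.79 to 9.60 CPM (-0.52, SE 0.136, adjusted p = 0.0150).

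In the 4 pairs that went opposite ways, the antisense RNA was higher and the partner lower in knockout tumours. ENTPD3, an ectonucleotidase gene, was at 8.79, 6.74, 11.7 and 12.8 CPM in parental and 0.591, 1.26, 1.76 and 1.36 CPM in knockout tumours (log2 fold change -2.99, SE 0.295, adjusted p = 2.91e-05). ENTPD3-AS1 was at 1.57, 0.984, 1.65 and 1.42 CPM and at 1.91, 2.03, 2.09 and 3.10 CPM (log2 fold change 0.71, SE 0.243, adjusted p = 0.0493). The groups do not overlap for either gene, but the antisense RNA's call was lost when any 1 of the 8 tumours was left out (0.54 to 0.79, adjusted p = 0.0602 to 0.134).

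ZFHX2-AS1 was at 1.92, 2.02, 2.15 and 0.992 CPM and at 4.05, 3.24, 2.64 and 3.34 CPM (log2 fold change 0.93, SE 0.258, adjusted p = 0.0200), while ZFHX2, a zinc finger homeobox gene, was at 1.23 to 1.98 CPM and 0.678 to 0.941 CPM (-0.96, SE 0.243, adjusted p = 0.0130). Without knockout tumour 1 the antisense RNA had 0.81 (adjusted p = 0.0678). PITPNA-AS1 was at 8.67 to 9.96 CPM and 10.6 to 12.3 CPM (0.37, SE 0.115, adjusted p = 0.0346) and PITPNA, a phosphatidylinositol transfer protein gene, at 105 to 117 CPM and 89.2 to 96.0 CPM (-0.25, SE 0.0729, adjusted p = 0.0268), and they share 69.9% of the antisense RNA's exonic bases. MYLK-AS1 (0.82, adjusted p = 0.0247) was at 0.604 to 0.758 CPM and 1.03 to 1.36 CPM. MYLK, a myosin light chain kinase gene, was at 0.708, 1.62, 3.20 and 2.03 CPM in parental and 0.678 to 0.974 CPM in knockout tumours (-1.24, adjusted p = 0.0333), and had -0.88 without parental tumour 3 (adjusted p = 0.0977). Without parental tumour 3 or 4 or knockout tumour 1, 2 or 3, MYLK-AS1 was not called (0.72 to 0.84), and MYLK was not called without any of these or knockout tumour 4. PITPNA was not called without parental tumour 1 or 2 or any 1 knockout tumour (-0.27 to -0.22), nor PITPNA-AS1 without parental tumour 2, 3 or 4 or knockout tumour 1, 3 or 4 (0.33 to 0.37). The number of opposite pairs depended on single tumours. Leaving out 1 tumour gave 0 opposite pairs without knockout tumour 1, 6 without parental tumour 2, 2 without parental tumour 1 and 1 without any of the other 5, against 13 to 19 pairs changed in the same direction.

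The ratio of antisense RNA to partner was tested within each tumour with limma on the difference of voom log2 CPM, fitted over 5221 pairs of genes on opposite strands. It changed in 58 of the 243 pairs (23.9%), with the antisense RNA relatively higher in 42 and relatively lower in 16. Over all 5221 pairs, 21.4% were called, 11.3% in the first direction and 10.1% in the second, where for pairs of other genes the direction follows their order along the chromosome. In 12 of the 58 neither gene had changed on its own, and of the 17 pairs that changed together, 10 had a ratio that did not pass the test, 4 a relatively higher and 3 a relatively lower antisense RNA. The plot of ratios gives the 10 pairs with the smallest adjusted p.

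**Figure D5:**
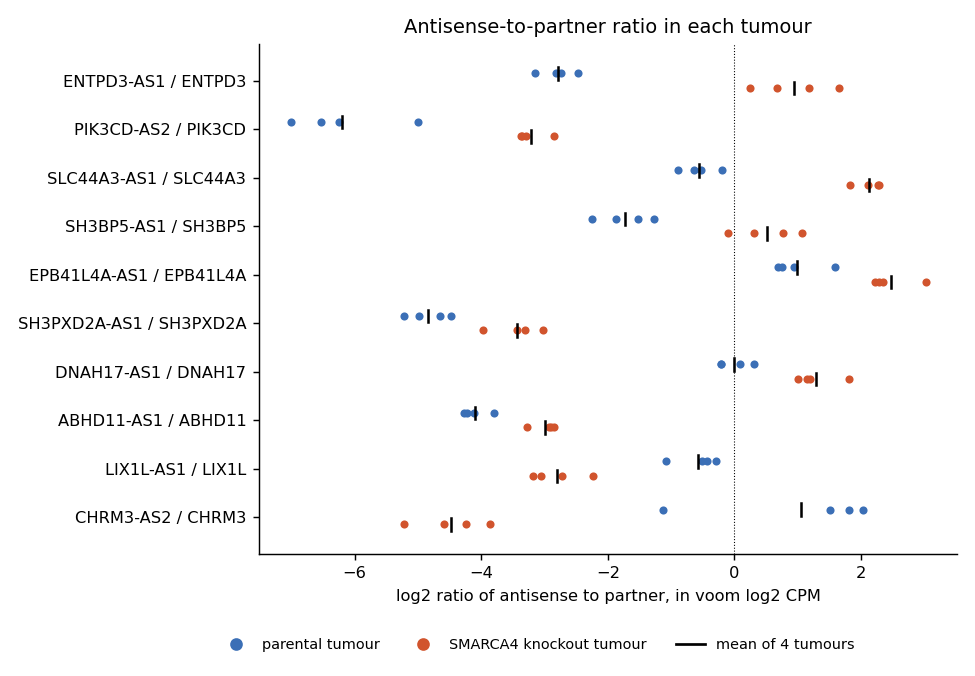
Log2 ratio of antisense RNA to partner (horizontal, voom log2 CPM) in each of 4 parental and 4 knockout tumours for the 10 pairs with the smallest adjusted p in limma, with bars at group means. In all 10 the groups do not overlap, and 8 of the 10 are higher in knockout tumours.

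SLC44A3-AS1 had the smallest adjusted p. Its log2 ratio to SLC44A3 was -0.88, -0.19, -0.63 and -0.52 in parental and 2.27, 2.12, 1.83 and 2.28 in knockout tumours, so the antisense RNA went from below to above its partner (change 2.68, SE 0.161, adjusted p = 3.98e-07, limma). ENTPD3-AS1 changed more, from -2.79 ± 0.278 to 0.94 ± 0.611 (SD, n = 4 each; change 3.74, SE 0.320, adjusted p = 5.80e-06, limma), mostly through the fall of ENTPD3 given above. CHRM3-AS2 had the largest change, from 1.06 ± 1.48 to -4.48 ± 0.578 (change -5.57, SE 0.857, adjusted p = 0.000617, limma).

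In 5 of the 10 the partner changed and the antisense RNA did not pass the test. SH3BP5-AS1 was at 5.61 to 9.55 CPM and 6.63 to 13.0 CPM while SH3BP5, a regulator of Rab-type GTPases, fell, with 21.6 to 26.6 CPM in parental and 4.69 to 7.62 CPM in knockout tumours (log2 fold change -1.78, SE 0.149, adjusted p = 9.87e-06). LIX1L-AS1 was at 1.42 to 1.68 CPM and 1.16 to 2.21 CPM while LIX1L rose from 1.92, 3.34, 1.97 and 2.41 CPM to 10.7, 14.2, 9.79 and 10.5 CPM (log2 fold change 2.25, SE 0.204, adjusted p = 1.67e-05). EPB41L4A-AS1, among the most abundant antisense RNAs, was at 49.1 to 62.9 CPM and 51.0 to 64.7 CPM while EPB41L4A, a FERM-domain gene, fell, with 19.1 to 32.6 CPM in parental and 6.73 to 13.6 CPM in knockout tumours (log2 fold change -1.36, SE 0.215, adjusted p = 0.000774). ABHD11, a mitochondrial hydrolase gene, fell (log2 fold change -0.92, adjusted p = 0.000154) beside ABHD11-AS1 at 0.20 (adjusted p = 0.401). SH3PXD2A, a scaffold gene of invadopodia, fell (-0.72, adjusted p = 0.00745) beside SH3PXD2A-AS1 at 0.64 (adjusted p = 0.0537), which passed without parental tumour 2 (0.82, adjusted p = 0.0170). The ratio change of these 5 pairs was 2.24, -2.22, 1.48, 1.11 and 1.41 in that order, each with an adjusted p of at most 0.00132 (limma).

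Of the 17 pairs that changed together, the ratio changed in 7. It was relatively higher in knockout tumours for TP73-AS1 (1.56, SE 0.356, adjusted p = 0.00741, limma) and DNAH17-AS1 (1.30, adjusted p = 0.00137) and relatively lower for MYO16-AS1 (-2.15, SE 0.506, adjusted p = 0.00875), ZNF503-AS1 (-1.25, adjusted p = 0.00751) and ZEB1-AS1 (-1.03, adjusted p = 0.00252). In the 10 pairs whose ratio did not pass the test, the change ran from -0.28 for SUCLG2-AS1 to 0.46 for OSMR-AS1, with 0.38 for TBX2-AS1 and 0.29 for ATP2B1-AS1. FZD10-AS1 to FZD10 changed by 0.04 (SE 0.131, adjusted p = 0.845, limma), IGFL2-AS1 to IGFL2 by -0.02 (SE 0.265, adjusted p = 0.972) and GATA2-AS1 to GATA2 by -0.01 (SE 0.169, adjusted p = 0.962). These 3 changes are within 1 SE of 0. For RASSF8-AS1 the ratio was relatively higher in knockout tumours (1.17, SE 0.332, adjusted p = 0.0232), but not without parental tumour 1, 2 or 3 or knockout tumour 2 or 4 (1.02 to 1.15), and for SLCO4A1-AS1 (1.16, SE 0.370, adjusted p = 0.0402) not without parental tumour 2 (0.68) or knockout tumour 1, 2 or 4 (1.07 to 1.15).

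Pairs were placed by how their genes lie. The start sites of 105 pairs lay within 1000 bases of each other, 30 of them with no shared gene body, while in 153 the gene bodies overlapped with starts farther apart. FOXD2-AS1 is a neighbour of its partner without overlap, and IGFL2-AS1 and ZNF503-AS1 lie farther away. In the 104 tested pairs with close starts, 14 antisense RNAs rose and 1 fell (14.4% called), 14 partners rose and 17 fell (29.8%), 7 pairs changed together and 0 went opposite ways. In the 130 tested pairs with overlapping bodies, 22 antisense RNAs rose and 7 fell (22.3%), 20 partners rose and 25 fell (34.6%), 8 pairs changed together and 4 went opposite ways. The ratio changed in 15 of the 104 (14.4%) and in 42 of the 130 (32.3%), beside the 21.4% of all pairs fitted. Across pairs, fold changes of antisense RNA and partner had a Pearson r of 0.48 and Spearman rho of 0.26 with close starts and 0.22 and 0.27 with overlapping bodies. In the 62 tested pairs that share no exonic base, Pearson r was 0.46, 9 pairs changed together and 1 went opposite ways. Whether unspliced reads of 1 gene were counted for the other in such pairs was not tested. The difference between the arrangements was not tested.

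Few genes of the complexes that trim and end such transcripts passed the test. The list of 40 genes held the nuclear exosome, its cofactors, the Integrator complex, which cleaves nascent noncoding transcripts, and the termination factors PCF11 and XRN2. Of these 40, 4 rose and 3 fell (17.5%, beside 27.0% of all genes), with log2 fold changes from -0.51 to 0.57 and a median of 0.01. INTS1, the largest Integrator subunit, rose from 387 ± 28.6 to 567 ± 57.3 CPM (SD, n = 4 each; log2 fold change 0.57, SE 0.0989, adjusted p = 0.00135), while INTS5 fell (-0.30, adjusted p = 0.0390). ZFC3H1 (0.37, adjusted p = 0.00422) and ZCCHC8 (0.27, adjusted p = 0.0436), both of adaptors that pass nuclear transcripts to the exosome, rose, as did PCF11 (0.26, adjusted p = 0.0189), a transcription termination factor. The exosome core genes EXOSC4 (-0.51, adjusted p = 0.0166) and EXOSC5 (-0.40, adjusted p = 0.0197) fell. Without knockout tumour 1, 2 or 3, the number called was 3, 3 and 4.

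The level of 1 CPM cuts through a continuous range. Just inside it, by the fourth highest of the 8 values, were TOB1-AS1 (1.00 CPM), PSMD6-AS2 (1.01 CPM) and PIK3CD-AS2 (1.02 CPM), and just outside SMC5-AS1 (0.988 CPM), ZNF460-AS1 and TSPOAP1-AS1 (0.974 CPM each). HOXA-AS2, the antisense RNA of a HOX cluster that reached the level, was at 8.34, 5.36, 13.0 and 7.80 CPM in parental and 5.55, 6.53, 5.52 and 8.33 CPM in knockout tumours, which overlap (log2 fold change -0.39, SE 0.241, adjusted p = 0.260).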

How the data were processed

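Total RNA of 8 H2122 xenografts (4 parental, 4 SMARCA4 knockout) was sequenced. The files deposited by the authors hold unnormalized counts for each gene symbol, 1 file per tumour. TopHat2 2.1.1, HTSeq 0.11.0 and hg38 are named per the submitters' processing notes. Annotation, strand setting and any removal of mouse reads are not given in the sources used here. Summary lines of the files were left out of library sizes. One antisense symbol is not reported here.

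Counts were fitted with edgeR 4.0.16 (filterByExpr with a minimum count of 10 and total of 15, TMM scaling, quasi-likelihood F-test) in R 4.3.3, with Benjamini-Hochberg adjustment over 16219 genes and a threshold of 0.05. Ratios were fitted with limma 3.58.1 over 5221 pairs of opposite-strand genes that overlap or lie within 5000 bases, plus antisense pairs by name. Partners were matched by symbol, 2 of them through an older symbol. Positions come from GENCODE 29 (265 of 271 placed) and promoters from RefSeq. On simulated data with 200 changed genes of any level, edgeR recovered 68.4% of genes changed 2-fold and 96.9% changed 4-fold. For limma these were 58.7% and 95.6% of pairs. In the data 27.0% of genes were called and the median antisense RNA was at 3.37 CPM. The simulated rates therefore need not hold for the antisense RNAs. No libraries were duplicates (lowest chi-square per degree of freedom 8.21).

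Named genes are SMARCA4, the 10 largest rises and 10 largest falls among called antisense RNAs, every called pair, the 10 ratios with the smallest adjusted p, the 6 highest RPKM, HOX antisense RNAs, PSMB8-AS1, 3 genes on each side of the level, and called exosome and Integrator genes. The members and lists were chosen with earlier results of these data known. Alternatives were DESeq2 1.42.0, other scalings, no filter, a replicate block, other levels, no precision weights and leaving out each tumour.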

Additional observations from a re-analysis of the deposited data

Results flagged for a closer look

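Over the named antisense RNAs and their partners, 158 sets of 4 tumours were screened for a tumour that stands apart from the other 3 by Dixon's test at 95%, which flags about 1 in 20 sets by chance, and 5 did. HIF1A-AS2 was at 29.2 CPM in parental tumour 2 and at 9.65 to 12.2 CPM in the other 3. CA3-AS1 was at 1.03 CPM in parental tumour 2 and at 0.404 to 0.503 CPM in the others. MYO16 was at 0.345 CPM in parental tumour 4 and at 0.137 to 0.152 CPM in the others. FZD10-AS1 was at 40.2 CPM in knockout tumour 1 and at 25.6 to 27.5 CPM in the others. ENTPD3-AS1 was at 3.10 CPM in knockout tumour 4 and at 1.91 to 2.09 CPM in the others.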

How the results depend on the processing

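SMARCA4 kept its direction under every alternative run, and the antisense RNAs and ratios called stayed mostly higher in knockout tumours. The numbers of antisense RNAs, partners and ratios called stayed within 1.5 times of the main count. The balance of the partners did not hold. With all tumours 35 rose and 42 fell, against 41 and 38 with upper-quartile scaling. Without knockout tumour 3, 31 partners rose and 30 fell, and without knockout tumour 2, 30 rose and 30 fell. Leaving out 1 tumour gave 40 to 62 antisense RNAs, 57 to 81 partners, 39 to 59 ratios and 13 to 19 pairs changed in the same direction, against 56, 77, 58 and 17. With all tumours, other level rules changed the size of the set more than the share called. At 1 CPM in all 8 tumours, 40 of 210 antisense RNAs were called (19.0%). The count was 43 of 194 (22.2%) at 2 CPM and 73 of 370 (19.7%) at 0.5 CPM, each in at least 4 tumours. The main rule gave 56 of 271 (20.7%), beside 27.0% of all genes tested, and DESeq2 called 65 of the 271. Opposite pairs, 4 with all tumours, numbered 0 to 6 with 1 tumour left out and 1 without the filter. Exosome, Integrator and termination genes called numbered 3 to 7 with 1 tumour left out and 4 without the filter, against 7. Of 57 named genes called, 43 kept their call in all 13 settings and none reversed, while 14 lost it in at least 1. The antisense RNAs were less stable than this pooled count, as 19 of the 30 called kept their call in every setting.

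The tumours share only a number: deviations of same-numbered tumours from their group means correlated at -0.19, -0.04, -0.02 and 0.09, and not every tumour correlated best with its own number. With the replicate block, 43 antisense RNAs, 71 partners, 51 ratios and 1 opposite pair were called, and the IGFL2-AS1 ratio was 0.0298.

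Changes of sign were limited to values that did not pass the test. Leaving out 1 tumour gave log2 fold changes of -0.66 to 0.11 for AGAP2, -0.10 to 0.21 for LIX1L-AS1, -0.23 to 0.24 for OIP5 and -0.0025 to 0.23 for PRRT3. It gave ratio changes of -0.10 to 0.17 for DDIT4-AS1, -0.0214 to 0.10 for FZD10-AS1, -0.10 to 0.0704 for GATA2-AS1, -0.23 to 0.19 for IGFL2-AS1, -0.17 to 0.0877 for PRKCQ-AS1 and -0.30 to 0.0508 for SLC16A1-AS1. The cause of these shifts was not tested. A level of 1 CPM is 19.8 to 23.2 counts in a library, so values near it carry a large counting error.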

Other observations

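A further 107 antisense RNAs were tested but lay below 1 CPM in 5 or more tumours. Of these 11 rose and 8 fell (17.8%, beside 27.0% of all genes tested). PSMB8-AS1, named after a gene of an immunoproteasome subunit, reached 1 CPM in 3 tumours only. It was at 0.657, 2.56, 2.33 and 0.733 CPM in parental and 0.682, 0.581, 0.881 and 1.03 CPM in knockout tumours (log2 fold change -0.95, SE 0.448, edgeR adjusted p = 0.145). PSMB8 was at 26.7, 49.6, 59.4 and 32.6 CPM and at 11.6, 12.8, 20.7 and 23.5 CPM, with no overlap (log2 fold change -1.27, SE 0.271, edgeR adjusted p = 0.00484). Parental tumours 2 and 3 were highest for both genes, and their leukocyte markers summed to 69.7 and 59.3 CPM against 13.1 and 7.59 CPM in parental tumours 1 and 4. The part of leukocytes in these values was not tested.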
